A study of Mus musculus with 8 samples.

Results

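H3K4me3 was examined at the histone genes in KL and KLG4m/m lung tumor cells. The members were all listed peaks whose gene symbol follows the mouse nomenclature of histone genes (symbols that start with Hist1h to Hist4h, H1f, H2ac, H2bc, H3c, H4c, H2az or H3f), which gave 57 peaks of 51 genes among 35486 peaks of 20871 genes. KL mice carry KrasLSL-G12D/+ and Lkb1fl/fl, and KLG4m/m mice carry the same alleles and Gpx4m/m, a rox-flanked Gpx4 with a DreERT2 recombinase that is driven by a CAG promoter and released by Cre, so that tamoxifen leads to the loss of Gpx4 in cells that took up Cre. All mice, the controls included, were young adults when infected intranasally with Ad-Cre and were then given tamoxifen, and tumors were collected 10 weeks after Ad-Cre. CD45-CD31-EpCAM+ cells were sorted and profiled by an assay that the study names CUT&Tag (tagmentation). The study's methods passage describes an antibody that brings a nuclease to a histone mark, so that the DNA beside it is released and sequenced. The name and this description do not match. The labels give 2 libraries of each group, KL replicates 1 and 2 and KLG4m/m replicates 3 and 4. The figure legend of the study gives 2 mice per group, whereas its methods passage gives a total of 3 mice. The p-values therefore rest on the spread between these libraries, and largely on a spread shared across all peaks. The H3K27ac libraries of the series were not analysed here.

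Histones are the proteins around which DNA is wrapped. Most of their genes lie in clusters, are short and without introns, and are transcribed in S phase, when new DNA has to be packed; their mRNAs end in a stem-loop in place of a poly(A) tail. A few genes outside the clusters encode replacement histones, such as H2A.Z (H2az1 and H2az2) and H3.3 (H3f3a and H3f3b), which are made throughout the cell cycle and are placed into chromatin outside replication. H3K4me3, trimethylation of lysine 4 of histone H3, marks the start sites of active genes and is itself carried by such H3 proteins.

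The libraries held 3244495 to 3463731 reads in peaks, of which 9124 to 9714 lay in the histone gene peaks. Levels are given as CPM (reads at a peak scaled to the library's reads in all listed peaks, with TMM scaling), and since every histone gene peak was 400 bp long, levels can be set side by side. A change by the same factor at all peaks of a library cannot be seen on this scale. The KL libraries differed from each other by 1.13 times the sampling noise (chi-square per degree of freedom over all peaks) and the KLG4m/m libraries by 1.23 times, against 2.37 to 2.80 times between groups. Over the histone gene peaks alone the groups were less well separated, with 1.01 times between the KL libraries, 1.96 times between the KLG4m/m libraries and 1.71 to 2.67 times between groups. The 1 listed Gpx4 peak, over its start site, had 242 and 236 reads in KL and 304 and 301 reads in KLG4m/m; it lies away from the deleted exons and therefore does not check the deletion.

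The sequences upstream of the genes on which the results turn are shown first. For H2az2, H2az1, H3f3b and H1f0, the genes outside the clusters with the largest differences that have a RefSeq promoter, and for H4c3, the H4 gene with the highest level among those with a RefSeq promoter, the 250 bases before the RefSeq start are given 5′ to 3′. For the H2A and H2B genes, which often face away from each other, the 248 bases between the starts of H2ac11 and H2bc11 are given, the head-to-head pair with the highest level. Coordinates of these sequences are those of GRCm38.p6, a build other than that of the peaks. Capitals mark the CCAAT box, the TATA element in the form TATAAA and the octamer, spelled ATTTGCAT, each searched on both strands.
H2az2, chr11:6444444-6444693, minus strand: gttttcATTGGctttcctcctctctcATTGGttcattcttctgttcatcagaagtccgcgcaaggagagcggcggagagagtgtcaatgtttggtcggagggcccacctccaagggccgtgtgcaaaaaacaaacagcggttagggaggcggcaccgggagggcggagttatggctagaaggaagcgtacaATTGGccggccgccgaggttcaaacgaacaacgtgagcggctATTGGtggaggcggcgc
H2az1, chr3:137864237-137864486, plus strand: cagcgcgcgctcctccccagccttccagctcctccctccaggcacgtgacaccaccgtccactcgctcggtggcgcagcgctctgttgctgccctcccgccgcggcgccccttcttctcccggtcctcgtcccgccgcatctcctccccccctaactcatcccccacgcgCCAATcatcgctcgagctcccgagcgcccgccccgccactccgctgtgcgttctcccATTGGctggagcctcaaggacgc
H3f3b, chr11:116024505-116024754, minus strand: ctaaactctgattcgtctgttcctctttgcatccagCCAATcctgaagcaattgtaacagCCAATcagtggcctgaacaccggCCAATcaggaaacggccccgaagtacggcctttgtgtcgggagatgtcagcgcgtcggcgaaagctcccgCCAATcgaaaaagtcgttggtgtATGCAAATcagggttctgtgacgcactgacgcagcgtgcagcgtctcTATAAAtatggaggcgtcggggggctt
H1f0, chr15:79027962-79028211, plus strand: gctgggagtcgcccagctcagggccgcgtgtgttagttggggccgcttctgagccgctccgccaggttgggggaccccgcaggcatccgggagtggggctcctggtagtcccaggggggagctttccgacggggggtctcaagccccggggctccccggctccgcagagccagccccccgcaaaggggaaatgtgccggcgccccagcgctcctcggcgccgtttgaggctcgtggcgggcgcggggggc
H2ac11 and H2bc11, chr13:22042950-22043197, plus strand: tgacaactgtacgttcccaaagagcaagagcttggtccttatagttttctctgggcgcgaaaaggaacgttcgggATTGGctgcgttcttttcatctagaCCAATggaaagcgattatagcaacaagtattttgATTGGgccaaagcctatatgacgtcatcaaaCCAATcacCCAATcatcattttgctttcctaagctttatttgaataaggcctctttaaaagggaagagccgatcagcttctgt
H4c3, chr13:23698459-23698708, minus strand: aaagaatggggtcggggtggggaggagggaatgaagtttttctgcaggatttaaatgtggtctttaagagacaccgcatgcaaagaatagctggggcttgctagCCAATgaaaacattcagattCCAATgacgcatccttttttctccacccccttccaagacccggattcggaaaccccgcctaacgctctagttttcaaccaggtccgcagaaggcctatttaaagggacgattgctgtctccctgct

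Upstream of H2az2 there were 4 CCAAT motifs and upstream of H2az1 2, and the H3f3b sequence held 4 CCAAT motifs, 1 octamer and 1 TATAAA. None of the 3 motifs was found upstream of H1f0, whose sequence had a GC content of 74.4%, nor did the 248 bases shared by H2ac11 and H2bc11 hold a TATAAA, although they held 5 CCAAT motifs at a GC content of 42.3%. RefSeq promoters matched 41 of the 51 genes; H2bc27, H4c16, H3c1, H2ac5-ps, H1f9, H3c7, H2ac14-ps, H2bc21, H1f11-ps and H4c14 were not matched. Within 250 bases before the start, CCAAT was present in 13 of 13 matched H2A genes and 5 of 5 H1 genes but in 2 of 10 H4 genes, while 33.8% of all 32851 RefSeq promoters held it in the same window. TATAAA was present in 17 of 36 matched genes of the clusters (47.2%) and in 12.4% of all promoters. The octamer was found in 5 of the 13 H2A genes and in 1.6% of all promoters. The clustered genes had a median GC content of 46.4% in this window against 52.4% over all promoters, and their median ratio of observed to expected CG dinucleotides was 0.72 against 0.373. These letters describe the windows and were not compared with the H3K4me3 signal.

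Of the histone genes with a RefSeq promoter, 27 of 68 had no listed peak of their own name, and 12 of these 27 were H2B genes, of which the table holds 14. RefSeq placed 9 H2A and H2B pairs head to head, with 164 to 281 bp between their starts. In 7 of these pairs the peak carried the H2A name and in none the H2B name. Because a 400 bp peak can span both starts and each peak carries 1 symbol, the values of H2A genes in such pairs cannot be divided between H2A and H2B. Likewise, clustered histone genes are close copies of each other, and the removal of reads with a low mapping quality takes away reads that fit several copies, so the level of a single clustered gene is uncertain.

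H3K4me3 at most histone genes differed little between KL and KLG4m/m tumor cells, and H2az2 was the exception. Among the 57 peaks, 1 fell in KLG4m/m and none rose at an adjusted p under 0.05 (edgeR's quasi-likelihood test, adjusted over all 35486 peaks), whereas 5.52% of all listed peaks fell, 3.1% rose and 8.62% changed in either direction. That is 1.75% of the histone gene peaks. Peaks within 1 kb of a start site changed in 11.3% of cases. At an unadjusted p under 0.05 there were 3 histone gene peaks higher and 4 lower, where 8738 of all 35486 peaks passed in either direction. No histone gene peak rose by DESeq2 or by limma. Of the whole table, DESeq2 called 277 peaks, and limma called 0 on log2(CPM + 1) and 501 on log2(CPM + 4). With so few calls, their lack of a rise among 57 peaks says little. The median log2 fold change, KLG4m/m over KL, was 0.03 over the histone gene peaks, with 31 above 0 and 26 below, and 0.01 over all peaks. The interquartile range of the histone gene peaks was −0.08 to 0.13 and their full range −0.73 to 0.42. The interquartile range was −0.27 to 0.21 for all peaks and −0.23 to 0.15 for all peaks within 1 kb of a start site.

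The intervals give the range of differences that the fitted model allows at each peak. Their width draws largely on a spread shared across all peaks (median prior degrees of freedom 24.5), with 2 libraries per group. They may be too narrow. At H2az1 the interval was −0.84 to −0.01, but without KLG4m/m replicate 3 the log2 fold change was −0.91. At all 57 peaks the 95% interval of the log2 fold change lay within a 2-fold change, and at 49 of them (86.0%) within a 1.5-fold change. Among peaks within 1 kb of a start site that had a level in the range of the histone gene peaks, 63.6% had an interval within a 1.5-fold change. Their median level was 41.7 CPM against 54.4 CPM for the histone gene peaks, so these shares are not matched for level. The libraries of the 2 groups did not overlap at 24 histone gene peaks (42.1%), 12 of them higher and 12 lower in KLG4m/m, and at 54.2% of all listed peaks. Summed over all 57 peaks, the level was 2747 and 2798 CPM in the KL libraries and 2804 and 2825 CPM in the KLG4m/m libraries, a difference of 1.51%.

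**Figure D1:**
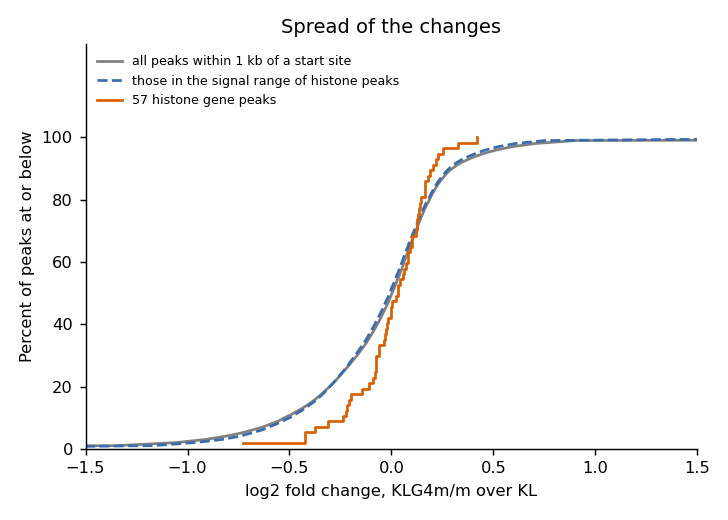
Cumulative share of peaks (vertical axis, percent) by log2 fold change of KLG4m/m over KL (horizontal axis) for the 57 histone gene peaks, all 17073 peaks within 1 kb of a start site and the 14332 of them in the signal range of the histone gene peaks; the horizontal axis is limited to 1.5 on either side. The histone gene peaks form the steepest line, with their median at 0.03 and their lowest value at −0.73. The 14332 peaks share the range of levels but not the median level, which was 41.7 CPM against 54.4 CPM for the histone gene peaks.

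**Figure D2:**
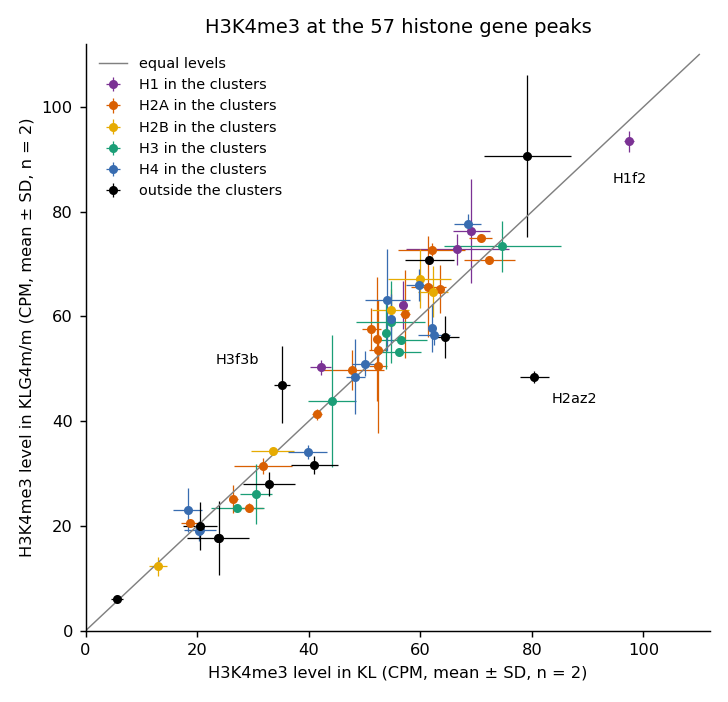
H3K4me3 level of each of the 57 histone gene peaks in KL (horizontal axis, CPM) and in KLG4m/m (vertical axis, CPM), as the mean of 2 libraries with bars for the SD, coloured by histone class. Most points lie along the line of equal levels; H2az2 lies below it at 80.5 and 48.5 CPM.

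H2az2, which encodes the H2A.Z variant H2A.Z.2, was the histone gene whose promoter fell. Its 1 peak, chr11:6394240-6394640 in the build of the deposited table, lies over the start site. It had 286 and 273 reads in KL and 170 and 154 reads in KLG4m/m, so that both KLG4m/m libraries were far below both KL libraries. The level was 80.5 ± 2.58 CPM in KL and 48.5 ± 1.15 CPM in KLG4m/m (SD, n = 2 each). The log2 fold change was −0.73 with an SE of 0.10 (95% interval −0.94 to −0.52; edgeR adjusted p = 6.65e-05), a 1.66-fold lower level. It ranged from −0.76 to −0.69 over 10 alternatives, with adjusted p from 4.84e-06 to 0.337. DESeq2 made the same call (adjusted p = 0.00546). The call was lost with limma on log2(CPM + 1) (adjusted p = 0.0971), without KLG4m/m replicate 3 (0.307) and without KLG4m/m replicate 4 (0.337), and each of these 3 fits called 0 of 35486 peaks.

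Around H2az2, 10 other peaks lay within 100 kb, of which 2 fell and 1 rose, where 5.52% of all listed peaks fell and 3.1% rose. So few calls are not a result about the region. The promoter peak of Purb, 31.1 kb away, fell from 89 and 74 reads to 19 and 16 reads (log2 fold change −2.15, SE 0.24; edgeR adjusted p = 1.88e-06). The promoter peak of Zmiz2, on the other side, fell (log2 fold change −0.39, SE 0.11; edgeR adjusted p = 0.0265), and that of Myo1g rose (log2 fold change 0.43, SE 0.11; edgeR adjusted p = 0.0139). Between H2az2 and Zmiz2 lay the promoter peak of Ppia, with a log2 fold change of 0.02.

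Marker genes of several cell types moved with the groups; over all genes, with reads summed over each gene's peaks, 5.38% rose and 9.63% fell. Of 9 epithelial and alveolar type 2 markers with a peak, 4 fell when reads were summed over each gene's peaks (Epcam, Cdh1, Sftpb and Lamp3), none rose, and the summed level of the 9 was 450 to 458 CPM in KL and 359 to 377 CPM in KLG4m/m; Sftpc had no listed peak. Lymphocyte markers summed to 248 to 262 CPM in KL and 310 to 321 CPM in KLG4m/m (3 of 9 rose, none fell), and macrophage markers to 288 to 293 and 322 to 325 CPM (2 of 7 rose and 1 fell). Endothelial markers (197 to 224 CPM in KL and 196 to 214 CPM in KLG4m/m, 1 of 6 fell) and fibroblast markers (84.5 to 93.3 and 89.2 to 93.2 CPM, 1 of 4 rose) overlapped between the groups, and a single call in so short a list says little beside the shares over all genes. No library had a sum at 0. The log2 fold changes of the 4 epithelial genes ran from −2.52 at Lamp3 (26 and 23 reads in KL, 4 and 4 in KLG4m/m) to −0.38 at Cdh1, with that of Epcam, the sorting marker, at −0.82. DESeq2 called 1 epithelial gene lower, no lymphocyte gene, and 1 macrophage gene in each direction. The part of these marker differences in the value of H2az2 or of any other histone gene was not tested, and in bulk samples fewer cells of a type and less signal per cell cannot be told apart.

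H2az1 encodes the other major H2A.Z protein. Its peak, beside the start site, had 83 and 83 reads in KL and 78 and 41 reads in KLG4m/m. The lower level rested on 1 KLG4m/m library, since replicate 3 was close to the KL libraries and replicate 4 was not. The log2 fold change was −0.42 with an SE of 0.20 (edgeR adjusted p = 0.192); without KLG4m/m replicate 4 it was −0.08 and without replicate 3 −0.91. H2az1 and H2az2 therefore had values below 0 both, and H2az2 alone passed the test; the difference between their changes was not tested.

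The H3.3 genes H3f3a and H3f3b encode the same protein. H3f3b had 3 peaks. The one 44 bp from a start site had 126 and 119 reads in KL and 180 and 135 reads in KLG4m/m, with both KLG4m/m libraries higher. Its log2 fold change of 0.42 (SE 0.14) was close to the threshold (edgeR adjusted p = 0.0527; 0.0337 to 0.559 over the alternatives). A second start site peak, 6.62 kb from the first, was the strongest histone gene peak outside the clusters, with 256 and 294 reads in KL and 275 and 328 reads in KLG4m/m (log2 fold change 0.19, SE 0.11, edgeR adjusted p = 0.272), and the groups overlapped there. At the third peak, 2683 bp inside the gene, 64 and 79 reads in KL stood against 80 and 54 reads in KLG4m/m, with a log2 fold change of −0.04. Which of the start site peaks belongs to the RefSeq sequence shown above was not matched across the builds.

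With the reads of all 3 peaks summed, H3f3b rose from 446 and 492 reads in KL to 535 and 517 reads in KLG4m/m (log2 fold change 0.22, SE 0.07; edgeR adjusted p = 0.0287). Neither DESeq2 (adjusted p = 0.344) nor limma with a pseudocount of 1 (0.311) or 4 (0.273) made this call, and it was also lost without KL replicate 1 (0.305) and without either KLG4m/m library (0.226 and 0.294). H3f3a had 2 peaks 2.49 kb apart, on either side of its start site. The stronger, at −556 bp, had 230 and 218 reads in KL and 203 and 172 reads in KLG4m/m (log2 fold change −0.20, SE 0.11). The other had 126 and 103 reads in KL and 102 and 85 reads in KLG4m/m (log2 fold change −0.24, SE 0.15). Both KLG4m/m libraries were below both KL libraries at each of them, by a small margin at the second, and neither passed the test (edgeR adjusted p = 0.254 and 0.356).

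H1f0 encodes H1.0, a linker histone of resting and differentiated cells. Its promoter peak had 153 and 132 reads in KL and 113 and 98 reads in KLG4m/m. The groups did not overlap, and the log2 fold change was −0.38 with an SE of 0.14 (edgeR adjusted p = 0.0898). The remaining peaks outside the clusters were those of H4c16, H1f9 and H1f11-ps. H4c16, an H4 gene away from the clusters, had 225 and 203 reads in KL and 243 and 230 reads in KLG4m/m (log2 fold change 0.20, SE 0.10, edgeR adjusted p = 0.225). H1f9, a linker histone gene of spermatids, had the lowest level of all members, with 17 and 22 reads in KL and 21 and 20 reads in KLG4m/m at a peak 9.1 kb from its start. At H1f11-ps, a pseudogene, the peak 1901 bp from the start had 69 and 96 reads in KL and 62 and 56 reads in KLG4m/m (log2 fold change −0.43, SE 0.19, edgeR adjusted p = 0.156). H1f10 had no listed peak.

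**Figure D3:**
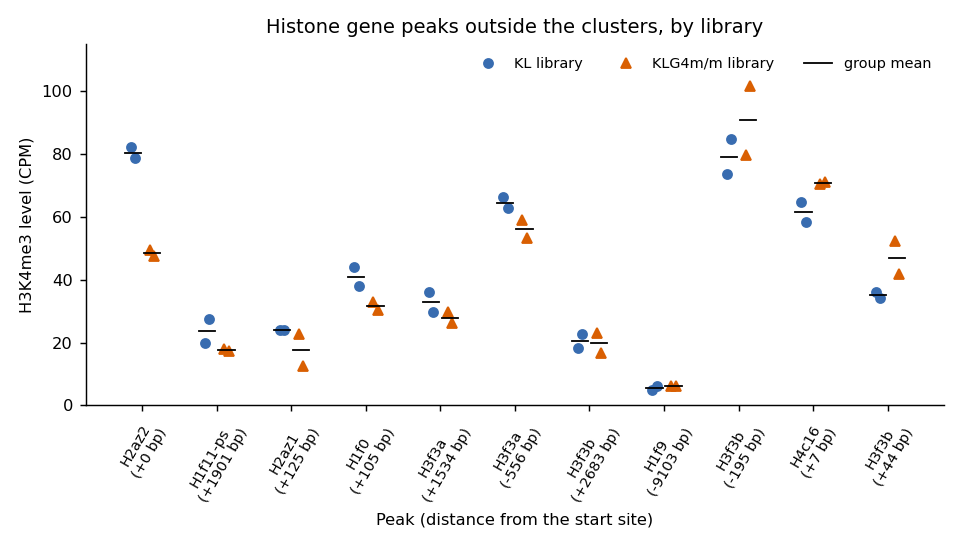
H3K4me3 level (vertical axis, CPM) in each KL library (circles) and each KLG4m/m library (triangles) at the 11 histone gene peaks outside the clusters, ordered by log2 fold change from lowest to highest, with short lines for the group means and the distance from the start site under each name. H2az2 at the left has the widest gap between the groups, and at H2az1 1 of the KLG4m/m libraries sits beside the KL libraries.

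Taken as a group, the 11 peaks outside the clusters summed to 470 and 467 CPM in KL and 443 and 425 CPM in KLG4m/m, a difference of −7.42%. Most of this lay at H2az2, since the 10 other peaks summed to 388 and 389 CPM in KL and 394 and 377 CPM in KLG4m/m, a difference of −0.73%. The 46 peaks in the clusters summed to 2277 and 2331 CPM in KL and 2361 and 2400 CPM in KLG4m/m, a difference of 3.33%. None of these 46 peaks passed the test by edgeR, where 8.62% of all listed peaks did. DESeq2 and limma called none of the 46 either, but they called few peaks of the whole table. An unadjusted p under 0.05 was seen at 2 of the 46, both with higher levels in KLG4m/m, and at 8738 of all 35486 peaks. The clustered peaks had a median log2 fold change of 0.04, with 27 above 0 and 19 below. Their level was also even, with an interquartile range of 38.1 to 63.4 CPM. That of all listed peaks was 6.05 to 43.4 CPM, and that of all peaks within 1 kb of a start site was 15.3 to 68.8 CPM. Peaks of the clusters lay over the start site in 30 of 46 cases, and the genes were short, with a median length of 493 bp, so a 400 bp peak covered much of such a gene.

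The linker histones H1f1 to H1f5, which bind the DNA between nucleosomes, had 5 peaks. H1f2 had the highest level of all histone gene peaks, with 341 and 336 reads in KL and 327 and 297 reads in KLG4m/m. It was also the only H1 peak of the clusters with a value below 0 (log2 fold change −0.06, SE 0.09). H1f1 had the lowest level and the largest difference of the class, with 142 and 151 reads in KL and 177 and 159 reads in KLG4m/m. Its log2 fold change was 0.25 with an SE of 0.12, and the groups did not overlap (edgeR adjusted p = 0.191). Those of H1f3, H1f4 and H1f5 lay between 0.13 and 0.14.

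H2A, one of the core histones, contributed 16 peaks of 15 genes, with a median log2 fold change of 0.05. Levels ran from H2ac6, with 241 and 251 reads in KL and 257 and 243 reads in KLG4m/m, down to the upstream peak of H2ac18, with 61 and 69 reads in KL and 71 and 66 reads in KLG4m/m. The second peak of H2ac18, at its start, had 186 and 178 reads in KL and 178 and 180 reads in KLG4m/m. H2ac20 had the largest difference upwards, with 201 and 230 reads in KL and 254 and 232 reads in KLG4m/m (log2 fold change 0.23, SE 0.10, edgeR adjusted p = 0.166). H2ac19, in the same cluster, had the largest downwards, with 108 and 95 reads in KL and 79 and 78 reads in KLG4m/m (log2 fold change −0.31, SE 0.16, edgeR adjusted p = 0.219). The libraries of the groups were apart at both of them. At H2ac11, whose shared upstream sequence is shown above, 263 and 240 reads in KL stood against 246 and 227 in KLG4m/m (log2 fold change −0.03, SE 0.10).

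Peaks with an H2B name numbered 5 of 4 genes. H2bc18 had 2 of them. The peak over its start had 222 and 194 reads in KL and 218 and 230 reads in KLG4m/m. The other, 8.49 kb away, had 182 and 198 reads in KL and 221 and 189 reads in KLG4m/m. This distant peak, like that of H2bc21, is annotated as distal intergenic, so its name does not show which gene it belongs to. Both H2bc18 peaks had a log2 fold change near 0.17 (SE 0.11 each, edgeR adjusted p = 0.365 and 0.366), the highest of the class. H2bc21, with 49 and 41 reads in KL and 38 and 44 reads in KLG4m/m, had the lowest level of the clusters, at a peak 5.57 kb from its start, and a log2 fold change of −0.08 (SE 0.22). The counting error is large at this depth, and its 95% interval ran from −0.53 to 0.38.

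H3, which carries the mark itself, contributed 8 peaks, 6 of them with values below 0, and a median log2 fold change of −0.02. H3c8 had the highest level, with 234 and 285 reads in KL and 265 and 226 reads in KLG4m/m, and H3c15 the lowest, with 83 and 106 reads in KL and 81 and 76 reads in KLG4m/m. Differences ran from H3c4 (99 and 113 reads in KL, 104 and 71 in KLG4m/m, log2 fold change −0.22, SE 0.16) to H3c1 (175 and 205 reads in KL, 184 and 208 in KLG4m/m, log2 fold change 0.10, SE 0.12). The groups overlapped at 7 of the 8 H3 peaks, where they did not overlap at 54.2% of all listed peaks. So few peaks are not a result about the class. None had an unadjusted p under 0.05, and all 8 intervals lay within a 1.5-fold change. H3f4, in a small cluster on chromosome 11, had a log2 fold change of −0.03.

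H4, the partner of H3 in the nucleosome core, contributed 12 peaks of 11 genes, with a median log2 fold change of 0.01. H4c14 had the highest level, with 244 and 232 reads in KL and 263 and 255 reads in KLG4m/m (log2 fold change 0.18, SE 0.10, edgeR adjusted p = 0.258). H4c17 had the lowest, with 69 and 72 reads in KL and 61 and 66 reads in KLG4m/m. The largest value upwards was that of H4c18, another weak peak, with 70 and 57 reads in KL and 69 and 84 reads in KLG4m/m (log2 fold change 0.33, SE 0.19, edgeR adjusted p = 0.283). The largest downwards was that of H4c2, with 130 and 147 reads in KL and 121 and 107 reads in KLG4m/m (log2 fold change −0.22, SE 0.14, edgeR adjusted p = 0.320). H4c3 had 2 peaks, 202 and 213 reads in KL against 235 and 206 in KLG4m/m near its start (log2 fold change 0.14) and 64 and 78 against 67 and 62 at −2585 bp (−0.08).

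**Figure D4:**
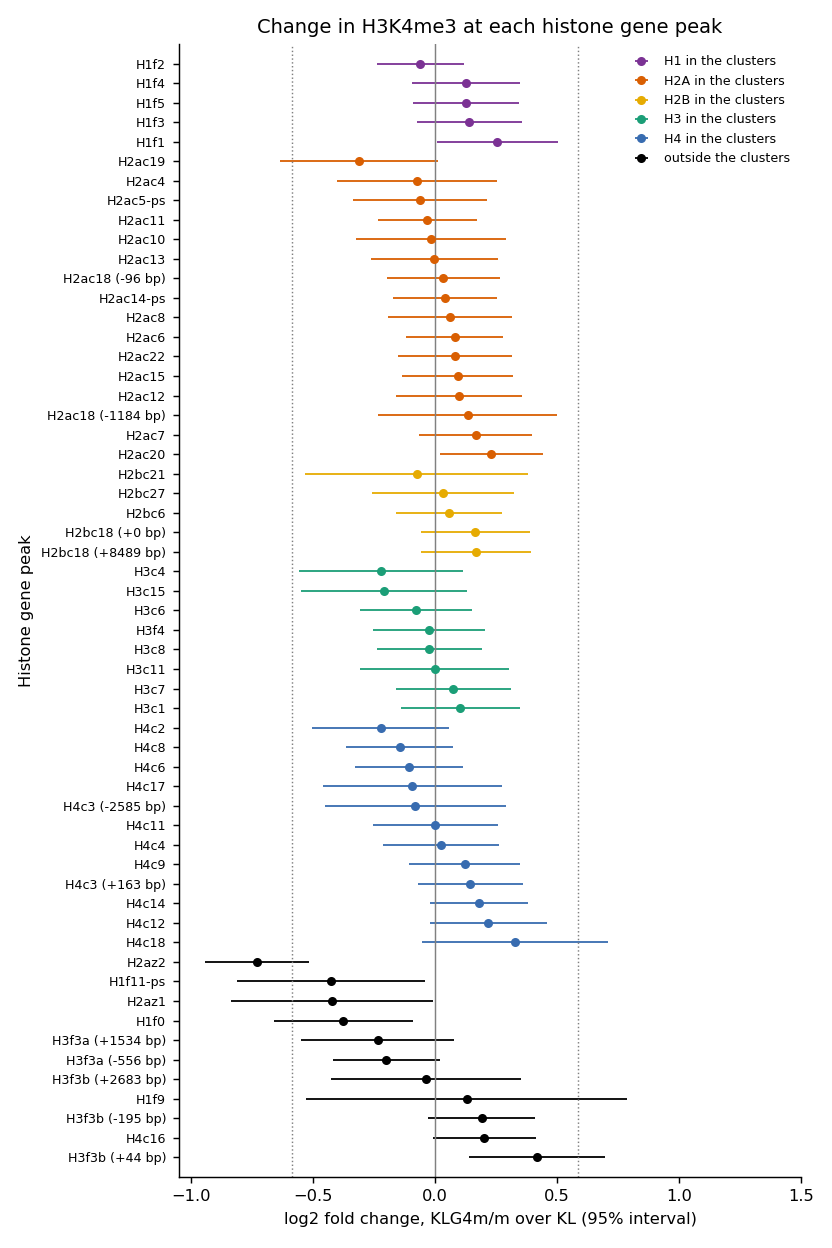
Log2 fold change of KLG4m/m over KL (horizontal axis; points) with its 95% interval (bars) at each of the 57 histone gene peaks, grouped by class; dotted lines mark a 1.5-fold change in either direction, and genes with several peaks show the distance from the start site. H2az2 has the only interval that lies below −0.5 throughout, and 49 of the 57 intervals stay between the dotted lines.

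The clustered genes lay in 4 runs. The longest, on chromosome 13 (chr13:21900527-22227499 in the build of the table), held 13 histone gene peaks with a median log2 fold change of 0.08. A second run on the same chromosome held 22 peaks with a median of 0.00, the chromosome 3 run 9 peaks with a median of 0.13, and a short run on chromosome 11 2 peaks. Peaks of other genes inside these runs numbered 20, of which 2 fell and none rose, where 5.52% of all listed peaks fell and 3.1% rose. Both were tRNA genes of the first run. At n-TFgaa1 30 and 28 reads in KL stood against 17 and 6 in KLG4m/m (log2 fold change −1.27, SE 0.36; edgeR adjusted p = 0.0274), and at n-TMcat8 122 and 125 against 83 and 84 (log2 fold change −0.51, SE 0.15; edgeR adjusted p = 0.0310). In total 11 tRNA gene peaks lay in this run, 9 of them with values below 0, with a median log2 fold change of −0.33 and a median level of 18.4 CPM. The other 118 tRNA gene peaks of the table had a median of −0.04 with 71 below 0, and 5 of them fell and 1 rose. tRNA genes, like histone genes, occur as near-identical copies, so single values are uncertain, and the difference between the histone and tRNA gene peaks was not tested.

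**Figure D5:**
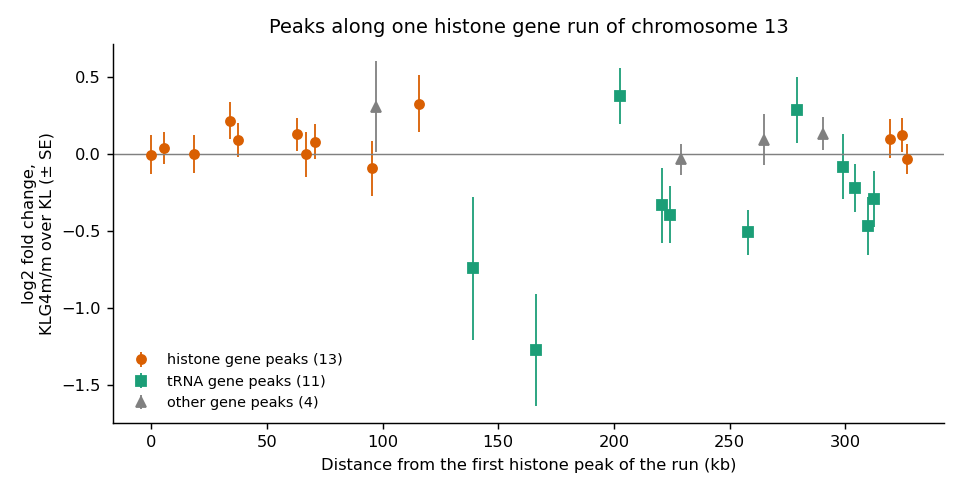
Log2 fold change of KLG4m/m over KL (vertical axis, with bars for the SE) along the longest histone gene run of chromosome 13, by distance from its first histone gene peak (horizontal axis, kb). The 13 histone gene peaks range from −0.09 (H4c17) to 0.33 (H4c18), and 9 of the 11 tRNA gene peaks lie below 0, among them the 2 that passed the test.

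With reads summed over each gene's peaks, H3f3b was the 1 histone gene of 51 that rose and H2az2 the 1 that fell (edgeR adjusted p under 0.05 over 20871 genes), or 3.92% of the histone genes, where 5.38% of all genes rose and 9.63% fell. H2az2 had an edgeR adjusted p of 1.08e-07 in this fit. At an unadjusted p under 0.05 there were 4 histone genes higher and 5 lower.

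Genes that act on histones and their mRNAs were compared on the same summed reads. Of 19 regulators of histone transcription and histone mRNA processing, 16 had a listed peak, of which 2 rose and 1 fell, where 5.38% of all genes rose and 9.63% fell, and so few calls are not a result about the list. Cpsf2, a subunit of the complex that cleaves histone pre-mRNA, rose from 342 and 331 reads in KL to 364 and 413 reads in KLG4m/m (log2 fold change 0.26, SE 0.09; edgeR adjusted p = 0.0253). Srrt, a cap-associated factor in histone mRNA 3′ end formation, rose from 102 and 105 to 145 and 123 reads (log2 fold change 0.43, SE 0.14; edgeR adjusted p = 0.0312). Zfp473, a protein of the histone pre-mRNA processing machinery, fell from 85 and 100 to 57 and 67 reads (log2 fold change −0.52, SE 0.18; edgeR adjusted p = 0.0315). DESeq2 and limma called none of the 16, and the median log2 fold change was 0.01, against 0.00 over all genes.

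Histone chaperones, which carry newly made histones to DNA, had 23 of 26 genes with a peak, of which 3 fell and 1 rose, also close to the shares over all genes. Asf1a, a chaperone of H3 and H4, fell from 153 and 148 reads in KL to 87 and 99 reads in KLG4m/m (log2 fold change −0.64, SE 0.15; edgeR adjusted p = 0.000664). Chaf1a, the large subunit of the chromatin assembly factor CAF-1, fell from 168 and 167 to 114 and 102 reads (log2 fold change −0.58, SE 0.14; edgeR adjusted p = 0.00105). Nap1l4, which handles H2A and H2B, fell from 399 and 352 to 279 and 308 reads (log2 fold change −0.30, SE 0.09; edgeR adjusted p = 0.0127). Hjurp, the chaperone of the centromeric H3 variant, rose from 467 and 512 to 601 and 540 reads (log2 fold change 0.28, SE 0.07; edgeR adjusted p = 0.00350). DESeq2 called none of the 23 and limma with a pseudocount of 4 called 2 lower. The median of the chaperones was −0.06, and 10 were above 0 and 13 below.

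Of 20 genes of S phase and proliferation, 18 had a peak and none passed the test by edgeR, DESeq2 or limma, with 2 at an unadjusted p under 0.05. Over all 20871 genes, 5.38% rose and 9.63% fell by edgeR. DESeq2 called 455 of them, and limma 119 on log2(CPM + 1) and 1061 on log2(CPM + 4). The lack of calls in so short a list is not a result about the list. The median log2 fold change of the 18 genes was 0.11, with 13 above 0 and 5 below. Their levels summed to 1298 and 1267 CPM in KL and 1355 and 1345 CPM in KLG4m/m. Of 19 other histone gene symbols, 6 had a peak (H2ax, H2aj, Cenpa, Macroh2a1, Macroh2a2 and H3f4, which is also among the 51 genes). Symbols were matched as written, so a gene listed under another name counts as without a peak. None of the 6 passed the test by any of these tools, and none had an unadjusted p under 0.05. Their median log2 fold change was 0.01, and so few genes are not a result about the list.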

How the data were processed

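H3K4me3 CUT&Tag libraries of sorted tumor cells were compared between KL and KLG4m/m (2 libraries each), grouped by the sample labels. According to the study's methods and processing notes, the authors trimmed reads with Trim Galore 0.6.10, mapped them with BWA 0.7.15, removed mitochondrial and low mapping quality reads and, with Picard 2.17.3, duplicates, and used MACS2 2.2.7.1 and HOMER 4.11.1; the methods name an Ensembl release of the mouse genome for mapping, but the chromosome names and gene positions of the table are not those of GRCm38, so its build is left unnamed, and the way peaks were merged is not given in the sources used here. The authors deposited, for each peak and library, whole counts of reads without normalization, and CPM that the authors scaled to reads in the listed peaks. Their columns of fold changes and p-values were not used.

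The deposited counts were fitted with edgeR 4.0.16 (R 4.3.3; TMM scaling, quasi-likelihood test, two-sided, no filter, no covariate) over all 35486 peaks, and, summed by gene symbol, over 20871 genes, with Benjamini-Hochberg adjustment and a threshold of 0.05. The SE was the fold change divided by the root of its F statistic. Libraries held 3244495 to 3463731 reads in peaks. Intervals and p-values rest on 2 libraries a group and on a spread shared across peaks. Alternatives were DESeq2 1.42.0, limma 3.58.1 on log2(CPM + 1) or log2(CPM + 4), total-read scaling, a filter at 10 CPM, peaks within 1 kb, the peak nearest the start, an added 1.5-fold change and leaving out each library. The test was tested on simulated data. Clusters were runs of members less than 1 Mb apart. Named peaks were all that passed the test, those highest or lowest in level or fold change within each class, all peaks of the replacement variants and of genes with several peaks; of other genes, those that passed the test. The neighbours of H2az2, H2ac11, H4c16, H1f3 to H1f5 and H3f4 were named, and the tRNA gene peaks grouped, after their values were seen. The members and lists were chosen with earlier results of these data known. Promoter sequences are those of RefSeq (GRCm38.p6).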

Additional observations from a re-analysis of the deposited data

How the results depend on the processing

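No paired analysis was possible because the KL and KLG4m/m libraries share no replicate number. Of the 57 histone gene peaks, 1 was called lower in 7 of 10 alternatives and at an added 1.5-fold change, each time H2az2; the count was 0 with limma on log2(CPM + 1), and ranged from 0 to 1 when 1 library was left out. The count of peaks called higher was 0, except 1 (H3f3b) with the filter at 10 CPM and 1 (H3f3b) with peaks within 1 kb only. The median log2 fold change of 0.03 was 0.008 with the filter and ranged from 0.0055 to 0.0717 when 1 library was left out; it stayed above 0 in all of these. On reads summed by gene, the count higher was 0 with DESeq2, 0 with limma at either pseudocount and 0 with an added 1.5-fold change, and the count lower was 0 with limma on log2(CPM + 1) and 2 with the filter, which added H1f0 (adjusted p = 0.0488, edgeR). When 1 library was left out, the count higher ranged from 0 to 1 and the count lower from 0 to 2; without KL replicate 1 it was 2, H1f11-ps (adjusted p = 0.0363, edgeR) beside H2az2. Without KLG4m/m replicate 3 or 4, no peak or gene of the whole table was called. The causes were not tested. DESeq2 called 277 peaks and limma with a pseudocount of 4 501 peaks, where edgeR called 3059. Weak peaks, such as H1f9 (17 to 22 reads), could have changed by more than 1.5-fold unseen.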
